A study of Mus musculus with 5 samples.

Results

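The 35 genes described here are interferon-stimulated genes, which cells transcribe after a type I interferon signal. They were chosen by symbol, as a list of antiviral effectors and their regulators, to be set against the higher Ifng and Irf8 RNA of the edited cells. All 35 symbols matched 1 gene ID each, among 56691 gene IDs in the count table, and all 35 had enough counts to be tested. RNA was sequenced from natural killer (NK) cells of mouse spleen, in 3 libraries labelled Fli1 KO and 2 libraries labelled NTC. The Fli1 KO cells had been edited with CRISPR against Fli1, which encodes an ETS-family transcription factor, and NTC is the control condition of the same experiment. Both groups are labelled as NK cells and share the RNA and library protocol. The sources used here do not give the strain, sex, age, culture, cytokines or position of the edit. They also do not say whether the libraries are from different animals, so every p-value rests on variation among these 5 libraries alone, which may be technical.

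Type I interferons bind a receptor made of Ifnar1 and Ifnar2, whose kinases Tyk2 and Jak1 phosphorylate STAT proteins such as Stat2. With Irf9, Stat2 enters a complex that binds the interferon-stimulated response element (ISRE) in the promoters of antiviral genes. Interferon gamma, the main interferon made by NK cells, uses a separate receptor, Ifngr1 with Ifngr2, and acts through the gamma-activated site (GAS) in its target promoters. Irf8 is a transcription factor of the interferon regulatory family that pairs with ETS or other factors on DNA.

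The libraries held 4718390 to 5643791 counts. A single gene, Gm10800, took from 10.3% of them in NTC 1 to 18.98% in NTC 2, with the Fli1 KO libraries between. The 16 NK cell markers all lay over 3 times background, the density of counts per kb of exon on olfactory and vomeronasal receptor genes, which NK cells do not use. Their summed level was 9851 to 14432 counts-per-million (CPM, scaled with TMM factors) in Fli1 KO libraries and 7247 to 10539 CPM in NTC libraries. Of the 16, 0 were called (edgeR adjusted p under 0.05), against 0.546% of all tested genes and 2% of those over 3 times background. At an unadjusted p under 0.05 (edgeR) there were 7 of 16, against 8.94% and 18.3%. Their median log2 fold change was 0.18. What part these differences have in the results was not tested. Over that background lay 1 of 10 T cell markers, 0 of 8 B cell markers, 1 of 12 macrophage and monocyte markers (Cd68), 1 of 10 dendritic cell markers (Itgax, which NK cells also use), 0 of 9 neutrophil markers and 0 of 10 erythroid and platelet markers. Fli1 RNA stood at 390, 320 and 361 CPM in Fli1 KO libraries and at 322 and 279 CPM in NTC libraries (log2 fold change 0.25, adjusted p = 0.641, edgeR quasi-likelihood test with Benjamini-Hochberg adjustment), which checks no label, because an edited gene can still be transcribed and counted.

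The antiviral genes were counted over a wide range, and 19 of the 35 did not exceed 3 times background. Per kb of exon the members ran from 31.8 CPM per kb for Sp100 to 1.03 CPM per kb for Oas2, a 31.0-fold range. Oas2 lay at 0.656 times background, so this is a range of counts per kb and not of expression. Of the 35, 16 lay over 3 times background, against 24.9% of all tested genes. They were Sp100 at 20.3 times, Dtx3l at 17.1, Ifi27 at 10.97, Trim30a at 10.8, Parp9 at 9.82, Bst2 at 9.26, Ddx58 at 8.57, Parp14 at 8.37, Ifi35 at 6.79, Trim25 at 6.42, Eif2ak2 and Zbp1 at 5.28, Stat2 at 4.63, Ifit1bl1 at 3.19, Ifit2 at 3.16 and Isg20 at 3.10 times background. The multiple is of the mean over all 5 libraries. Ifit1bl1, at 2.56 times in Fli1 KO and 4.24 times in NTC, and Isg20, at 3.61 times in Fli1 KO and 2.44 times in NTC, exceeded 3 times through 1 group alone, and the other 14 did so in both groups. Just outside were Rtp4 at 2.97 and Dhx58 at 2.94 times background, and Xaf1 (2.40), Oas1a (2.13) and Ifih1 (2.04) also lay between 2 and 3 times. The other 14 were below 2 times background: Usp18, Mx1, Isg15, Ifit3, Oas3, Cmpk2, Rsad2, Ifit1, Oasl1, Mx2, Ifi44, Oasl2, Ifit3b and Oas2. From Ifit1 on, the 7 lowest of these were no higher than 1.32 times background, the 95th percentile of 1277 tested receptor genes.

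**Figure D1:**
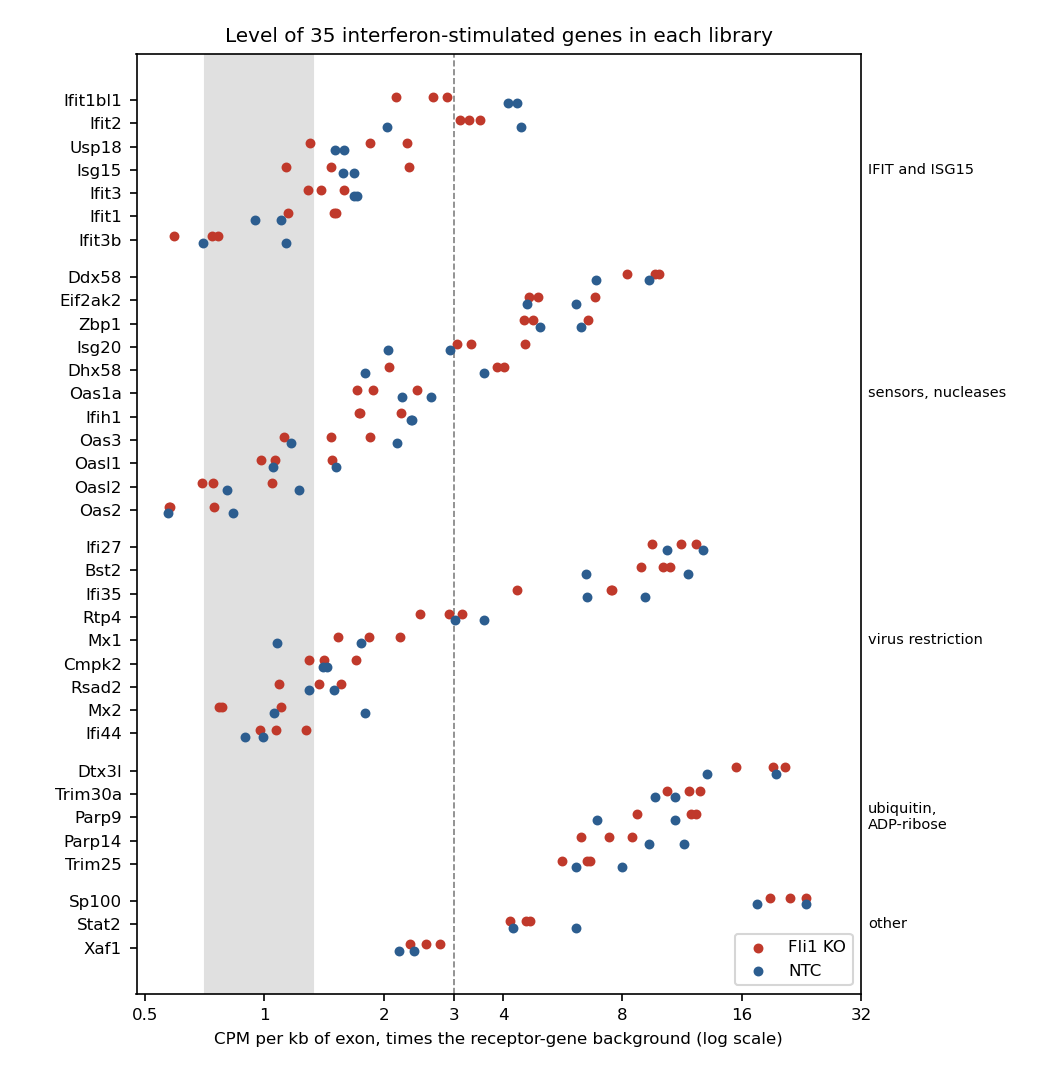
Level of each of the 35 interferon-stimulated genes, as times the receptor-gene background on a log axis, with 1 point for each library (Fli1 KO red, NTC blue), a dashed line at 3 times background and a grey band for the 5th to 95th percentile of receptor genes. Sp100 and Dtx3l average 20.3 and 17.1 times, while all 5 points of Oas2 lie below 1. The background itself was 1.36 to 1.75 CPM per kb in the libraries, so the order of libraries here can differ from that in CPM.

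By role, all 5 of the ubiquitin and ADP-ribose enzymes lay over 3 times background, as did 2 of 3 genes of transcription and cell death, 4 of 11 nucleic acid sensors and nucleases, 3 of 9 restriction factors and 2 of 7 genes of the IFIT family and ISG15 system. The 19 members not over 3 times background summed to 163, 174 and 181 CPM in Fli1 KO libraries and to 174 and 183 CPM in NTC libraries. Receptor-gene density over the same exon length gives 109, 121 and 105 CPM in Fli1 KO libraries and 98.9 and 127 CPM in NTC libraries. For these 19, the observed sum was 1.44 to 1.76 times that of an equal length of genes that NK cells do not use, and a fold change in their counts includes those background counts.

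The promoters were searched for the elements named above. RefSeq (GRCm38.p6) had an entry for 25 of the 35 members, and the 250 bases before the start were searched on both strands. The ISRE core, taken as GAAA, any 2 bases and GAAA, stood in 11 of the 25 (44.0%), against 3.46% of 27025 genes with an entry. It stood in 4 of 12 members over 3 times background (Bst2, Ifit1bl1, Stat2 and Trim30a) and in 7 of 13 of the others (Ifit1, Ifit3, Ifit3b, Isg15, Oas1a, Oas3 and Rsad2). The GAS core TTCNNNGAA, the same on both strands, stood in 5 of 25 (20%; Bst2, Eif2ak2, Ifit2, Isg20 and Oas1a), against 8.13% of genes. A composite of an ETS and an interferon regulatory site, taken as GGAA, any 2 bases and GAAA, differs from the ISRE core by 1 letter and stood in 3 of 25 (12%; Ifi44, Sp100 and Stat2), against 2.68% of genes. The ETS core CCGGAAGT stood in 1 of 25 (4.0%; Ifit2), against 3.23% of genes. These are matches of letters and do not show binding. Printed below, 5 prime to 3 prime on the gene's strand with ISRE matches in capitals, are members that carry the element at low level (Isg15, Ifit1, Ifit3), members that carry it over 3 times background (Trim30a, Stat2), and Socs1, an inhibitor that was higher in Fli1 KO libraries. Their positions are chr4:156200819-156201068, minus strand; chr19:34640639-34640888, plus strand; chr19:34583279-34583528, plus strand; chr7:104465194-104465443, minus strand; chr10:128270248-128270497, plus strand; and chr16:10785537-10785786, minus strand.
Isg15: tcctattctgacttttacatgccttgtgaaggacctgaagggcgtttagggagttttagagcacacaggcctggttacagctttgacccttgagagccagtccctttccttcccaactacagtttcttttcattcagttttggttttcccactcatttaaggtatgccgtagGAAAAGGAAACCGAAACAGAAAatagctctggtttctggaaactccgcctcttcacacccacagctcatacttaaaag
Ifit1: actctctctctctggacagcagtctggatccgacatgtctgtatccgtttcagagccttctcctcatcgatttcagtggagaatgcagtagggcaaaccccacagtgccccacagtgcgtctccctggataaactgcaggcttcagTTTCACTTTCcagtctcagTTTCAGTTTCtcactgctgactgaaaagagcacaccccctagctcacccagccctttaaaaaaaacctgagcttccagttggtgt
Ifit3: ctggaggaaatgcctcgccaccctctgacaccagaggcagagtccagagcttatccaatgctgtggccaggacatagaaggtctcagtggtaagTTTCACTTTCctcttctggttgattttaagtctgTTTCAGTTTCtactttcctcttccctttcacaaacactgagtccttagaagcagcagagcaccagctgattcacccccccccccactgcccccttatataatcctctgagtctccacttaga
Trim30a: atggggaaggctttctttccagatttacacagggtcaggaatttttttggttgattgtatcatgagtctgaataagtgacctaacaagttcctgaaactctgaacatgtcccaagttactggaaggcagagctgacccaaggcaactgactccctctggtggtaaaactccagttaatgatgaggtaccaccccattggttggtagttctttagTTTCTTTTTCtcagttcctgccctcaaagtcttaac
Stat2: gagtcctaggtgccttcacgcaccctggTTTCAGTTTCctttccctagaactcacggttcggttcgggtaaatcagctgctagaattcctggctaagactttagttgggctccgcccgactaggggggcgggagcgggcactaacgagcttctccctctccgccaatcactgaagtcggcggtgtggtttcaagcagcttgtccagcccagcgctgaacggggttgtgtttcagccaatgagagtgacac
Socs1: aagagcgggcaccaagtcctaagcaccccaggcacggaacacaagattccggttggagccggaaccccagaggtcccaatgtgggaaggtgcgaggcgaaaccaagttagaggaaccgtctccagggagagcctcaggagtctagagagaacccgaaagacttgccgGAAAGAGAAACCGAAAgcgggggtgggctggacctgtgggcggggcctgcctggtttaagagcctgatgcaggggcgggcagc

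None of the 35 members was called higher or lower in Fli1 KO cells. Genes with an adjusted p under 0.05 (edgeR) are termed called, which held for 0 of 35 members, against 0.546% of the 30580 tested genes (0.458% higher and 0.0883% lower) and 2% of the 7605 tested genes over 3 times background, so that 0 among 35 is near the background share. DESeq2 and limma-voom also called 0 members, against 1.47% and 0.569% of the genes to which they gave an adjusted p. At an unadjusted p under 0.05 there were 5 of 35 (14.3%), 2 higher (Parp9 and Isg20) and 3 lower (Parp14, Ifit1bl1 and Mx2), against 8.94% of all tested genes and 18.3% of those over 3 times background. The log2 fold changes ran from -0.72 to 0.54, with 16 above 0 and 19 below. Their median was -0.040, beside -0.018 over all tested genes. It was 0.041 in the 16 members over 3 times background, and also in the 14 that were so in both groups, beside 0.11 over all 7605 such genes. With only these 7605 genes scaled and fitted, the median of the 16 was -0.076, beside -0.0051 over all of them. The filter on level admitted Ifit1bl1 and Isg20 through the group where each is higher, so these medians describe the members and support nothing. The groups did not overlap in 13 members (37.1%; 5 higher and 8 lower), against 25.6% of tested genes (11.9% higher and 13.7% lower).

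The size of change in counts that these data allow was limited for most members. The 95% interval of the log2 fold change left out both a 2-fold rise and a 2-fold fall in 29 of 35 members, against 68.6% of all tested genes. For the members over 3 times background this held in 14 of 16 (all but Ifit1bl1 and Isg20), against 92.5% of such genes. In 11 of these 16 the whole interval lay within 1.5-fold either way. The share of all such genes for which this holds was not computed, so the count describes these members only. All intervals take the scaling factors as fixed and leave out any error in them. Counts of the 19 members not over 3 times background include background counts. Their intervals therefore bound the change in counts and not the change in the RNA itself. The intervals of Isg20 and Ifit1 reached a 2-fold rise, and those of Ifit1bl1, Ifit3b, Mx2 and Isg15 a 2-fold fall. Summed over all 35 members, the level was 1189, 1146 and 1262 CPM in Fli1 KO libraries and 1223 and 1180 CPM in NTC libraries. The sums averaged 1199 ± 58.7 CPM in Fli1 KO (SD, n = 3) and 1202 ± 30.2 CPM in NTC (SD, n = 2), and they overlapped. Sp100, Dtx3l, Parp14 and Ddx58 weighed most in them, averaging 241, 153, 122 and 94.8 CPM over the 5 libraries. Rises and falls of single members can cancel in such a sum. In whole-population RNA, fewer cells that express a gene and less RNA per cell cannot be told apart.

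**Figure D2:**
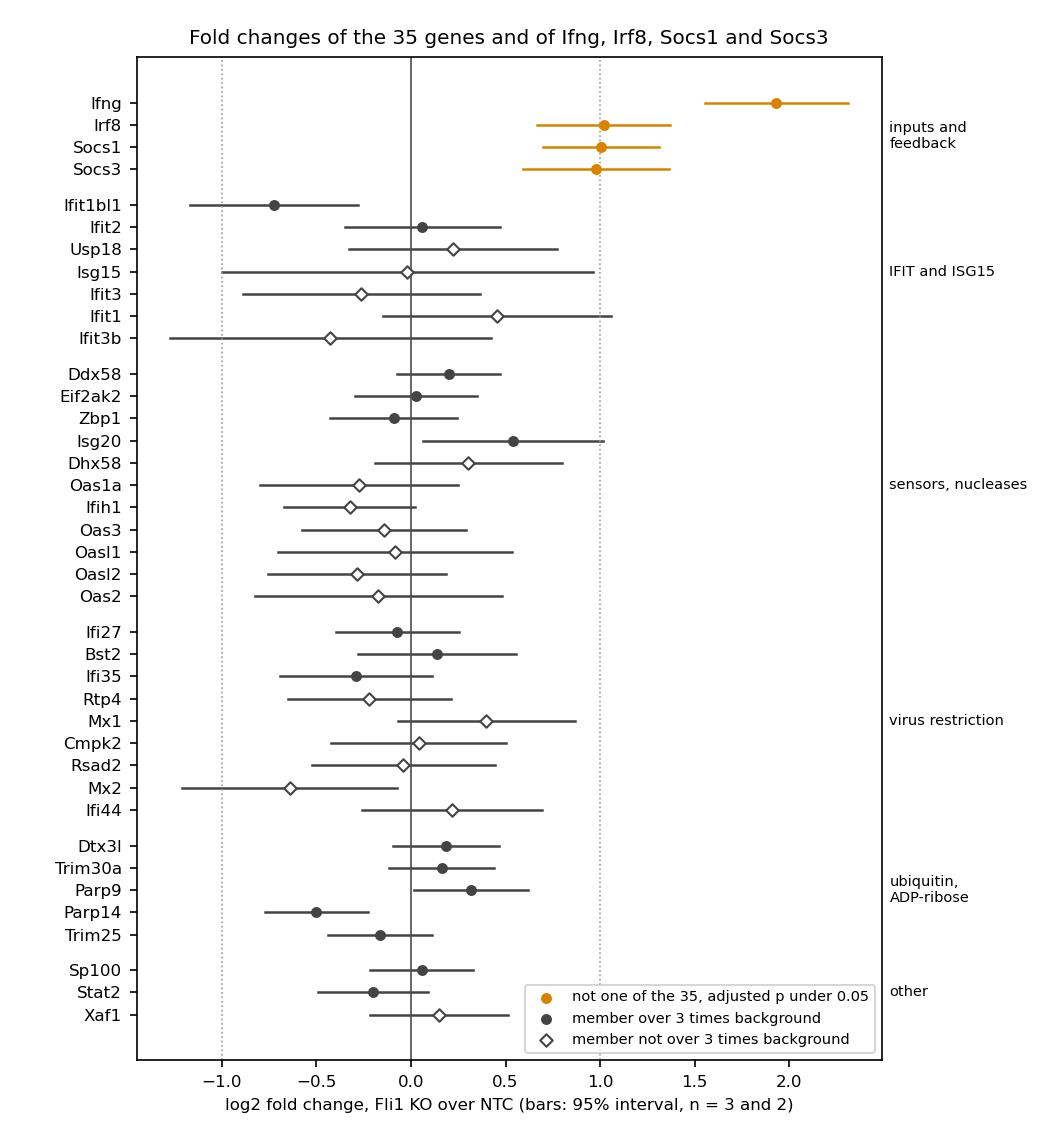
Log2 fold change of Fli1 KO over NTC with its 95% interval for the 35 members, grouped by role, and above them for Ifng, Irf8, Socs1 and Socs3 in orange, with dotted lines at a 2-fold change. The members run from -0.72 (Ifit1bl1) to 0.54 (Isg20), with filled circles for those over 3 times background and open diamonds for the others.

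Among the ubiquitin and ADP-ribose enzymes, the chromosome 16 neighbours Parp14, Dtx3l and Parp9 had fold changes of different sign, none of them called. Parp14, a mono-ADP-ribosyltransferase, had 103, 97.4 and 114 CPM in Fli1 KO libraries and 145 and 152 CPM in NTC libraries. Its means were 105 ± 8.47 CPM in Fli1 KO (SD, n = 3) and 148 ± 5.02 CPM in NTC (SD, n = 2), giving a difference of -0.50 on the log2 scale (SE 0.13, edgeR adjusted p = 0.107). Every Fli1 KO library lay below both NTC libraries, and no member had a smaller p. Among the changes of scaling and filter, Parp14 passed the threshold on the lower side with upper-quartile factors (-0.52, adjusted p = 0.0389), with library size alone (-0.63, 0.0171), with a filter of 5 CPM in 2 libraries (-0.52, 0.0364) and in a fit of the genes over 3 times background (-0.62, 0.0142), each by edgeR. In these settings 0.131%, 0.232%, 0.189% and 0.776% of all genes were called lower. It did not pass with any 1 library left out, at -0.55 to -0.43 (adjusted p 0.0565 to 0.557 by edgeR). Parp14 lies on chromosome 16 (GRCm38, 35832874 to 35871544), 54967 bases from Dtx3l, whose 5 prime end overlaps that of Parp9. Dtx3l, a ubiquitin ligase that works with Parp9, had 165, 148 and 171 CPM in Fli1 KO libraries and 152 and 131 CPM in NTC libraries (log2 fold change 0.18, edgeR adjusted p = 0.751), and the groups overlapped. Parp9, its ADP-ribosylating partner, had 87.4, 70.6 and 86.6 CPM in Fli1 KO libraries and 72.0 and 58.7 CPM in NTC libraries (0.32, SE 0.15, edgeR adjusted p = 0.526), again with overlap. The Dtx3l and Parp9 genes share 8.0% and 9.40% of their exon bases, and the strand setting of the counting is not given, so reads there may belong to either. The differences between these neighbours were not tested.

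The TRIM ligases Trim30a and Trim25 were not called. Trim30a, a mouse TRIM protein known to restrain Toll-like receptor signalling, had 72.6, 71.0 and 75.0 CPM in Fli1 KO libraries and 60.9 and 69.6 CPM in NTC libraries (log2 fold change 0.16, edgeR adjusted p = 0.785). Trim25, the ligase that activates the RNA sensor RIG-I, had 57.3, 54.0 and 54.4 CPM in Fli1 KO libraries and 62.4 and 61.4 CPM in NTC libraries (-0.16, edgeR adjusted p = 0.776). All Fli1 KO libraries lay above both NTC libraries for Trim30a and below both for Trim25, by less than 1.5-fold in the means. Part of the Trim30a sequence, 5.98% of its 50-base words, also occurs in Trim30d.

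The sensors detect foreign or misplaced nucleic acid inside the cell. Ddx58, which encodes RIG-I, had 102, 96.1 and 101 CPM in Fli1 KO libraries and 89.8 and 84.4 CPM in NTC libraries (log2 fold change 0.20, edgeR adjusted p = 0.707). Its lowest Fli1 KO library stood above its highest NTC library. Ifih1, which encodes the RNA sensor MDA5, had 21.4, 23.5 and 26.2 CPM in Fli1 KO libraries and 26.01 and 33.6 CPM in NTC libraries (-0.32, SE 0.17, edgeR adjusted p = 0.589), and the groups overlapped by 1 library. Eif2ak2, the double-stranded RNA kinase PKR, had 35.7, 41.7 and 50.6 CPM in Fli1 KO libraries and 42.7 and 41.2 CPM in NTC libraries (0.025, edgeR adjusted p = 0.984). Zbp1, a sensor of Z-form nucleic acid that can start necroptosis, had 25.2, 26.6 and 33.7 CPM in Fli1 KO libraries and 30.2 and 30.5 CPM in NTC libraries (-0.092, edgeR adjusted p = 0.927). For both Eif2ak2 and Zbp1 the NTC values lay inside the Fli1 KO range. Isg20, an RNA exonuclease, had 9.28, 9.45 and 12.3 CPM in Fli1 KO libraries and 7.46 and 6.68 CPM in NTC libraries. Its means were 10.3 ± 1.69 CPM in Fli1 KO (SD, n = 3) and 7.07 ± 0.545 CPM in NTC (SD, n = 2), giving 0.54 on the log2 scale (SE 0.23, edgeR adjusted p = 0.476). The groups did not overlap, and the gene is 3.10 times background over all libraries but 2.44 times in NTC. The rest of this role, Dhx58 (LGP2, a regulator of RIG-I and MDA5) and the oligoadenylate synthetase family Oas1a, Oas2, Oas3, Oasl1 and Oasl2, several of which make the activator of RNase L, had log2 fold changes from -0.29 (Oasl2) to 0.30 (Dhx58). Of the Oas1a sequence 57.6% of 50-base words recur in Oas1g or Oas1b, so its own level is uncertain.

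The IFIT proteins bind viral RNA, and ISG15 is attached to other proteins. Of these 7 genes, 5 form a cluster on chromosome 19 (GRCm38, 34550694 to 34650009). Ifit1bl1, a paralogue of Ifit1, had 7.26, 9.99 and 9.47 CPM in Fli1 KO libraries and 12.7 and 17.1 CPM in NTC libraries. Its means were 8.91 ± 1.45 CPM in Fli1 KO (SD, n = 3) and 14.9 ± 3.16 CPM in NTC (SD, n = 2), giving -0.72 on the log2 scale (SE 0.21, edgeR adjusted p = 0.192), with no overlap between the groups. Of the fits with 1 library left out, it passed the threshold in that without NTC 1 (-0.92, edgeR adjusted p = 0.0170; 0.529% of all genes were called lower there) and gave -0.49 without NTC 2 (edgeR adjusted p = 0.706). Next to it in the cluster, Ifit2 stood at 0.060, Ifit3 at -0.26, Ifit3b at -0.43 and Ifit1 at 0.45 on the log2 scale, with edgeR adjusted p-values of 0.962, 0.862, 0.822 and 0.697. Ifit1 was higher in every Fli1 KO library than in both NTC libraries, at 22 to 37 counts in Fli1 KO libraries and 21 to 23 in NTC libraries before scaling. Ifit3 and Ifit3b share 51.2% and 45.0% of their 50-base words with other genes, mostly each other, so the split of reads between them is uncertain. Apart from the reads, their promoters share a stretch of 169 identical bases. Ifit1bl1 and Ifit1 share 6.45% and 7.13% of their 50-base words with other genes, among them Ifit1bl2 and each other. Isg15, the ubiquitin-like modifier that is among the strongest interferon targets, was the least counted member, with 13, 8 and 8 counts in Fli1 KO libraries and 10 and 10 in NTC libraries. At that depth its log2 fold change of -0.020 has a 95% interval of -1.002 to 0.96, so a change under 2-fold was not detectable. Usp18, which removes ISG15 and dampens the receptor, had a log2 fold change of 0.22 (edgeR adjusted p = 0.868).

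The restriction factors act on entry, replication or budding of viruses. Ifi27, a small membrane protein, had 24.8, 23.2 and 26.2 CPM in Fli1 KO libraries and 25.5 and 26.5 CPM in NTC libraries (log2 fold change -0.073, edgeR adjusted p = 0.941), and the groups overlapped. Bst2 (tetherin), which holds budding virions at the membrane, stood at 0.14 and Ifi35, a partner of Nmi, at -0.29 on the same scale. Mx2, a dynamin-like GTPase gene listed as a polymorphic pseudogene in this annotation, had 4.24, 6.60 and 4.03 CPM in Fli1 KO libraries and 8.84 and 6.68 CPM in NTC libraries (-0.64, SE 0.27, edgeR adjusted p = 0.470). All its Fli1 KO libraries were lower, by a margin of less than 1 CPM for the nearest pair, and the gene is 1.07 times background. Its neighbour Mx1 stood on the other side of 0, at 0.40 (edgeR adjusted p = 0.636). Rsad2 (viperin), which makes a chain-terminating nucleotide, and its neighbour Cmpk2, a nucleotide kinase, gave -0.040 and 0.040, while Rtp4 gave -0.22 and Ifi44 0.22. No restriction factor had an adjusted p under 0.470. Of their exon bases, Ifi35 shares 16.8% with Gm11626 and Rtp4 13.9% with Gm45338, so reads there may belong to either gene.

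Of the genes of transcription and death, Sp100, a component of PML nuclear bodies, was the most highly expressed member. It had 241, 237 and 255 CPM in Fli1 KO libraries and 240 and 230 CPM in NTC libraries, with means of 244 ± 9.63 CPM in Fli1 KO (SD, n = 3) and 235 ± 6.50 CPM in NTC (SD, n = 2). Its log2 fold change of 0.056 has a 95% interval of -0.22 to 0.33 (edgeR adjusted p = 0.946). Stat2, a subunit of the ISRE-binding complex, had 41.6, 41.0 and 39.3 CPM in Fli1 KO libraries and 49.4 and 43.9 CPM in NTC libraries (-0.20, edgeR adjusted p = 0.730), with the groups apart. Xaf1, which promotes apoptosis, stood at 0.15 (edgeR adjusted p = 0.866).

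**Figure D3:**
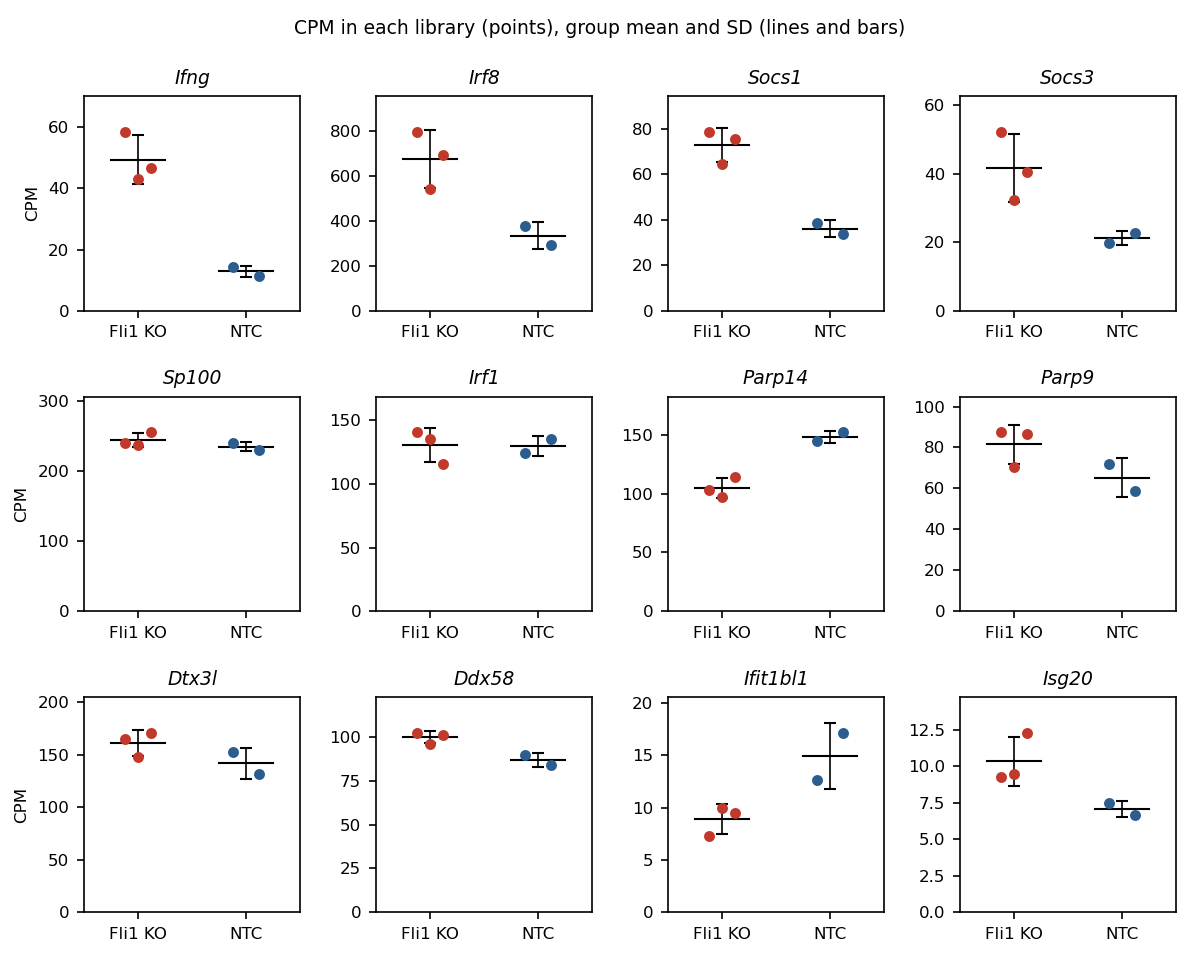
CPM in each library (points; Fli1 KO left of NTC, horizontal lines at group means, bars for SD) of Ifng, Irf8, Socs1, Socs3 and Irf1 and of the members Sp100, Parp14, Parp9, Dtx3l, Ddx58, Ifit1bl1 and Isg20. The Fli1 KO points of Ifng (43.0 to 58.5 CPM) lie above its NTC points (11.5 and 14.2 CPM), while those of Sp100 and Irf1 overlap with NTC.

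Beside these effectors, Ifng, Irf8 and the inhibitors Socs1 and Socs3 were higher in Fli1 KO cells. Ifng, the gene of interferon gamma, had 58.5, 43.0 and 46.8 CPM in Fli1 KO libraries and 14.2 and 11.5 CPM in NTC libraries, 3.84-fold higher in the means (49.4 ± 8.10 CPM in Fli1 KO, SD, n = 3, and 12.9 ± 1.93 CPM in NTC, SD, n = 2). It rose with a log2 fold change of 1.93 (SE 0.18, edgeR adjusted p = 1.66e-06). Irf8 had 794, 538 and 693 CPM in Fli1 KO libraries and 376 and 290 CPM in NTC libraries (log2 fold change 1.02, SE 0.17, edgeR adjusted p = 0.00321). The call of Irf8 was lost without Fli1 KO 1 (0.90, edgeR adjusted p = 0.102) and without Fli1 KO 3 (1.02, edgeR adjusted p = 0.0862). Socs1 rose as well, an inhibitor of JAK kinases that interferons induce, with 78.7, 64.4 and 75.4 CPM in Fli1 KO libraries and 38.7 and 33.6 CPM in NTC libraries (1.01, SE 0.15, edgeR adjusted p = 7.13e-04). Socs3, an inhibitor of cytokine receptors, also rose, with 52.3, 32.3 and 40.5 CPM in Fli1 KO libraries and 19.8 and 22.6 CPM in NTC libraries (0.98, SE 0.19, edgeR adjusted p = 0.0112). The call of Socs3 was lost without Fli1 KO 1 (0.79, edgeR adjusted p = 0.192) and without Fli1 KO 3 (1.01, edgeR adjusted p = 0.0965). Ifng and Socs1 were called in all 14 alternative settings. No test compared these genes with the members.

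The receptors and the rest of the chain described here were not called. Ifnar1 (log2 fold change 0.18, edgeR adjusted p = 0.738), Jak1 (0.17, 0.790), Tyk2 (0.075, 0.927), Irf9 (-0.072, 0.937), Irf7 (0.13, 0.877) and Irf1 (0.0079, 0.995) each lay within 0.2 of 0. Ifnar2, the other chain of the type I receptor, had 50.6, 47.6 and 46.5 CPM in Fli1 KO libraries and 65.5 and 61.4 CPM in NTC libraries (-0.40, SE 0.13, edgeR adjusted p = 0.297). It was lower in every Fli1 KO library, and passed the threshold only in the fit of genes over 3 times background (-0.51, edgeR adjusted p = 0.0337). Of the interferon gamma receptor, Ifngr1 was abundant at 519, 514 and 503 CPM in Fli1 KO libraries and 377 and 526 CPM in NTC libraries (0.18, edgeR adjusted p = 0.785), while Ifngr2 was counted at only 1.14 times background (-0.47, edgeR adjusted p = 0.625). The 18 genes of type I and type III interferons themselves lay at 0.145 to 1.25 times background, with 1 of 18 tested (Ifna2, 0.29, edgeR adjusted p = 0.918). In the ligand and receptor list 1 of 8 tested genes rose (Ifng) and 0 fell. In the signal chain 3 of 19 rose (Socs1, Irf8 and Socs3) and 0 fell. Of all tested genes 0.458% were called higher, and 2% of those over 3 times background, where all 19 lay, were called in either direction. Both lists were drawn up with these results known, so the counts describe them only.

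Further interferon targets outside the 35 were read from lists chosen with earlier results known. Of 32 genes used as targets of interferon gamma, such as the guanylate-binding proteins and immunity-related GTPases, 1 rose (Socs1, which is also in the signal chain list), 0 fell, and the median log2 fold change was -0.049. The next smallest p-values, read off after the values were seen, went in both directions: Cd274, the checkpoint ligand PD-L1, had 0.68 (edgeR adjusted p = 0.0534) and Irgm2, an immunity-related GTPase, -0.72 (edgeR adjusted p = 0.0586). Of 78 tested genes among 82 other interferon-stimulated genes, 0 rose and 1 fell, with a median of -0.076. The one that fell was Slfn2, a Schlafen gene that maintains lymphocyte quiescence in mice, with 98.1, 93.3 and 82.8 CPM in Fli1 KO libraries and 128 and 155 CPM in NTC libraries (-0.63, SE 0.14, edgeR adjusted p = 0.0305). Its call was lost with DESeq2 size factors (-0.61, adjusted p = 0.0545) and without Fli1 KO 1 (-0.67, 0.199), Fli1 KO 2 (-0.62, 0.0720), Fli1 KO 3 (-0.55, 0.527) or NTC 2 (-0.48, 0.327), by edgeR. Of 23 tested genes of nucleic acid sensing and interferon induction 0 were called, with a median of 0.030. The smallest p among them belonged to Unc93b1, which carries Toll-like receptors to endosomes (0.47, edgeR adjusted p = 0.317). Beside these lists, 0.458% of all tested genes were called higher and 0.0883% lower, with a median of -0.018. Among tested genes over 3 times background, 2% were called in either direction, with a median of 0.11. The counts called in these lists therefore describe them only.

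**Figure D4:**
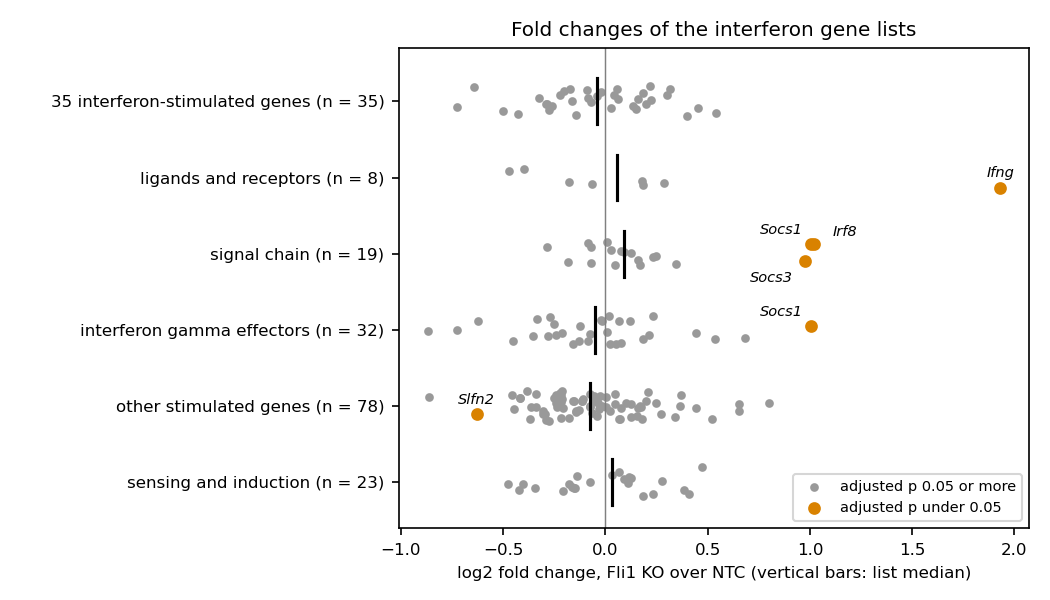
Log2 fold change of Fli1 KO over NTC for the 35 interferon-stimulated genes and for 5 other interferon gene lists, with 1 point for each tested gene, a bar at each list's median, and genes with an adjusted p under 0.05 in orange. The members span -0.72 to 0.54 with none called, and Ifng stands apart at 1.93.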

How the data were processed

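The authors' table gives raw, whole-number counts for each Ensembl gene ID in 5 libraries and has 0 other columns. Per the labels' protocols, libraries were made with a probe enrichment kit from 10 ng of column-purified total RNA. Per the submitters' processing notes, FastQC 0.12.0, Trimmomatic 0.39, STAR 2.7.11 and the build mm10 were used. The sources used here do not give the counter, its strand setting, its annotation or its treatment of reads with several positions. Groups came from the sample titles. The members and all lists were chosen with earlier results of these data known.

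Coordinates, gene types and exon lengths came from GENCODE release M21 (GRCm38), and symbols from the supplied gene name table, which matched 52073 of 56691 IDs. Genes passing filterByExpr (minimum 10 counts; 30580 of 52871 with any count) were scaled with TMM and tested, Fli1 KO over NTC, with the robust quasi-likelihood test of edgeR 4.0.16 in R 4.3.3. P-values were adjusted with Benjamini-Hochberg over all tested genes, and called means an adjusted p under 0.05. The SE comes from the coefficient and its F statistic. CPM means and SDs describe libraries. The common biological coefficient of variation was 0.120. Background is the count per kb on 1455 autosomal receptor genes (5432.638 kb of exon), scaled to each gene's exon length. That this density holds for all genes in probe-enriched libraries was not tested.

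Every member was named. Values per library are given for the 12 members with the highest CPM and the 6 with the smallest p. Fixed pathway genes were named whatever their result, and up to 4 called genes were named per list. The result of 1 gene that this rule names is not reported here. Pairs of libraries of a group all differed beyond sampling noise, measured as a chi-square per degree of freedom against Poisson sampling. The 2 NTC libraries differed most of all pairs, at 10.6. Pairs of Fli1 KO libraries gave 2.18 to 3.48, and pairs of a Fli1 KO and an NTC library 4.24 to 8.45. Alternatives were other scalings (DESeq2 size factors, upper quartile, library size), other filters, DESeq2 1.42.0, limma-voom (limma 3.58.1), the replicate number as a block, and leaving out each library.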

Additional observations from a re-analysis of the deposited data

How the results depend on the processing

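The count of members called higher was 0 in the reported fit and in all 14 alternatives. The count called lower was 0 in the reported fit, 1 (Parp14) with upper-quartile factors, with library size alone, with a filter of 5 CPM in 2 libraries and with genes over 3 times background, and 2 with the replicate block. With 1 library left out it was 0 to 1 for members called lower, the 1 being Ifit1bl1 without NTC 1, and 0 to 0 for members called higher. The median member log2 fold change was -0.16 with library size alone, where the median of all genes was -0.14, and -0.080 to 0.065 with 1 library left out. In the fit of genes over 3 times background it was -0.076 over 16 members, where the median of all genes was -0.0051. The same 16 members had a median of 0.041 in the reported fit, so its sign depended on the genes used for scaling and fitting. Of 466 member values under the alternatives, 30 had the other sign, in 12 members, and 6 of these moved by over 1 SE. None of the values with a changed sign was called in either fit. Among all tested genes the reported fit called 140 higher and 27 lower. The alternatives gave 92 and 71 with library size alone, 46 and 3 when Fli1 KO 1 was left out, 219 and 22 when Fli1 KO 2 was, 57 and 7 when Fli1 KO 3 was, 239 and 56 with no filter, 137 and 59 among genes over 3 times background, and 703 and 174 without NTC 1. With an NTC library left out, the lone other one is assumed to vary like the Fli1 KO group. DESeq2 gave an adjusted p to 25 of 35 members.

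The libraries share only the replicate numbers 1 and 2, which the labels do not tie to a shared animal or batch. Deviations from the group means correlated at r = 0.0686 for the libraries numbered 1 and 0.143 for those numbered 2. Fli1 KO 3 and NTC 1, which share no number, correlated at 0.0765, above the libraries numbered 1. With only 2 NTC libraries, their deviations are equal and of opposite sign, and those of the Fli1 KO libraries cancel when added. These correlations are thus tied to one another and cannot show whether the libraries are paired. With the replicate block Parp14 (-0.57, edgeR adjusted p = 5.2e-05) and Ifit1bl1 (-0.79, edgeR adjusted p = 0.0247) were called lower, and over all genes 728 were called higher and 193 lower. No NTC library carries the number 3, so Fli1 KO 3 adds nothing to the group difference in that fit. The difference rests on the libraries numbered 1 and 2. Without the block and without Fli1 KO 3, Parp14 gave -0.55 (edgeR adjusted p = 0.506). Why more genes were called with the block was not tested. Depth limits the members with few counts: the 35 together took 5651 to 7055 counts per library, and the least counted had 8.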
